A study of Mus musculus with 4 samples.

Results

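Tissue inhibitors of metalloproteinases and the plasminogen activator system are represented here by 9 genes: the inhibitors Timp1, Timp2 and Timp3, the matrix metalloproteinases Mmp2, Mmp7 and Mmp14, the plasminogen activators Plau (urokinase) and Plat (tissue type), and the urokinase receptor Plaur. They were taken as every noncontrol probe carrying one of these gene names in the array files, which gave 15 probes for 9 of the 27361 gene names on the array. Total RNA from mouse kidney was labelled with Cy3 and hybridised to one-colour Agilent expression arrays, 1 for each of 4 groups. The animals were C57BL/6 mice, 8 weeks old, either wild type or labelled NLRC5-/- (no cell-type driver is named; called knockout below), after a sham operation or after 30 min of ischemia of both kidneys and reperfusion (called injured below). Reperfusion lasted 48 h according to the titles and the design text and 24 h according to the sample descriptions, a conflict that the sources used here do not settle. Nothing in the labels says whether RNA of several animals was pooled.

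Matrix metalloproteinases cut collagens and other matrix proteins, and the inhibitors bind their active sites. Urokinase and tissue-type activator convert plasminogen to plasmin, which dissolves fibrin and activates several metalloproteinases, while the urokinase receptor holds urokinase at the cell surface. In the kidney these genes are known for their part in tubular repair, in clearing fibrin after ischemia and in the matrix turnover of scarring.

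Several facts of the 4 arrays bear on every value below. With 1 array per group there is no spread between animals, so a difference between 2 arrays has no replicate check; replicate spots of a probe give a technical SD of 0.16 to 0.19 (log2) for such a difference and of 0.25 for the difference between the injury responses. Both wild type arrays lay on slide 1 and were scanned in scan 1, and both knockout arrays lay on slide 2 and were scanned in scan 2, so slide, scan and genotype cannot be told apart, whereas each injury difference lies within a slide. The array of the wild type injured kidney was dimmer than the others, with a 75th percentile of 176.6 intensity units against 445.9 for the wild type sham kidney and 452.7 and 352.6 for the knockout pair, and every value is given as log2 of the signal minus its own array's percentile. The only Nlrc5 probe read -4.05 (wild type) and -3.73 (knockout) after sham operation and -3.30 and -3.58 after injury, above background on all 4 arrays and not lower under the knockout label in the sham pair. Whether this probe lies in the deleted part is not given in the sources used here, so it does not check the genotype labels. On the knockout sham array Xist was above background and 4 Y-linked genes were not, the reverse of the other 3 arrays, so the comparisons that use it also compare a female with a male pattern. All 6 proximal tubule markers were above background on all 4 arrays.

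Some of the probes whose readings are compared within a gene are shown first: both Timp1 probes and the second probes of Plaur, Mmp14 and Plau. They are shown because 5 of the 9 genes were read by more than 1 probe, and these probes did not always give the same size of difference. Each is 60 bases, written as deposited, with its mm9 position as given in the file.
Timp1 A_52_P87713, chrX:20451675-20451733: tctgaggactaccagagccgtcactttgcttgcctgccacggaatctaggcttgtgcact
Timp1 A_51_P512384, chrX:20449905-20449964: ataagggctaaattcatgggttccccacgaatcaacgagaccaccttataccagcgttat
Plaur A_51_P112405, chr7:25259315-25259374: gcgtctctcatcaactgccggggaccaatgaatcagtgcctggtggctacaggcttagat
Mmp14 A_52_P304128, chr14:55058775-55058834: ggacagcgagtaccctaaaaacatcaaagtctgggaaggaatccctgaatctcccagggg
Plau A_51_P305311, chr14:21659855-21660221: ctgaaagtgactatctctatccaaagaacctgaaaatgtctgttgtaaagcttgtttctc
The last position spans 367 bases, more than the probe's own length. No annotation of the mm9 build was used here, so exon or intron is not stated for any probe.

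The regions upstream of the 3 genes with the highest injured-over-sham values in the wild type, Timp1, Mmp7 and Plaur, are shown with the matches to 3 motifs. They are the 250 bases before the transcript start from RefSeq on the GRCm38.p6 build, which is a different build from that of the probe positions, and the members had matching entries for 6 genes (Timp1, Timp2, Timp3, Mmp7, Mmp14 and Plaur). Capitals mark matches, on either strand, to the AP-1 letters TGANTCA, the PEA3 letters AGGAAG and the Sp1 letters GGGCGG.
Timp1 promoter chrX:20869916-20870165, plus strand: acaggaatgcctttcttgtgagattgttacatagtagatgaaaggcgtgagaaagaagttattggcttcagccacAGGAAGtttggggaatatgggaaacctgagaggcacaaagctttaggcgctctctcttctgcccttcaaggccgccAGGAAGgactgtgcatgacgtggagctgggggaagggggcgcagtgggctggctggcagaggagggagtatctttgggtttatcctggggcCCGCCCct
Mmp7 promoter chr9:7691840-7692089, plus strand: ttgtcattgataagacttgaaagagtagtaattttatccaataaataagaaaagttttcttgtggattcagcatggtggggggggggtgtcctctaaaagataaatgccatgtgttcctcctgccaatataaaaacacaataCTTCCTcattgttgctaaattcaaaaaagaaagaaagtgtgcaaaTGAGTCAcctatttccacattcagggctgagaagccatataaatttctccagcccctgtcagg
Plaur promoter chr7:24462233-24462482, plus strand: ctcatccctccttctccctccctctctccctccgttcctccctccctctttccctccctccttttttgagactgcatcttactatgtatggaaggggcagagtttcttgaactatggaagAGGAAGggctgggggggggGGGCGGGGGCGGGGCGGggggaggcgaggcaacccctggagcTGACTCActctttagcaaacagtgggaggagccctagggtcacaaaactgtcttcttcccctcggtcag
The AP-1 letters occurred once in the Mmp7 window shown, 63 bases before the start, in a second window of Mmp7, at another start, 0 times, and once in the Plaur window, 69 bases before it, and were found in none of the windows of Timp1, Timp2, Timp3 and Mmp14. Of 32851 promoter windows of this length, 2217 (6.75%) held them. The PEA3 letters lay 175 and 99 bases before the Timp1 start, 108 before that of Mmp7 (142 in its second window) and 130 before that of Plaur, and also in the windows of Timp3 (204) and Mmp14 (209), against a share of 29.5% over all windows. One Sp1 match lay in the Timp1 window and 3 overlapping or adjoining matches in that of Plaur, and the windows of Timp2, Timp3 and Mmp14 also held it, against 32.7% of all windows. A match is a description of the letters and not a bound site.

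Unless a second probe is named, the values here are from the brightest probe of each gene. In the wild type kidney after ischemia, transcripts of the inhibitor Timp1, the epithelial metalloproteinase Mmp7 and the urokinase receptor Plaur were 11.4-fold to 18.8-fold higher than after sham operation. The membrane-anchored Mmp14 was 2.41-fold higher, and the second Plaur probe was 5.68-fold higher. Timp2 and Timp3, the inhibitors with high readings in sham kidney, were lower by 1.24 and 1.43 (log2). In the knockout the same 4 genes were higher in the injured kidney, Mmp7 by 3.14-fold and Plaur by 2.34-fold, but the second Plaur probe was level (0.02). Timp2 and Timp3 differed from sham by 0.10 and 0.08 there. Under normexp, a correction that fits background and signal together, these 2 values were -0.52 and -0.48, and that of Mmp14 was 0.53. Between the injured kidneys, Plaur, Mmp7, Plat and Plau were lower in the knockout by 1.02 to 2.10 and Timp2 was higher by 1.24. Under normexp Mmp7 gave -0.08 and Timp2 0.84 in that comparison. With its second probe Plau gave -0.24. None of these differences has a replicate check.

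**Figure D1:**
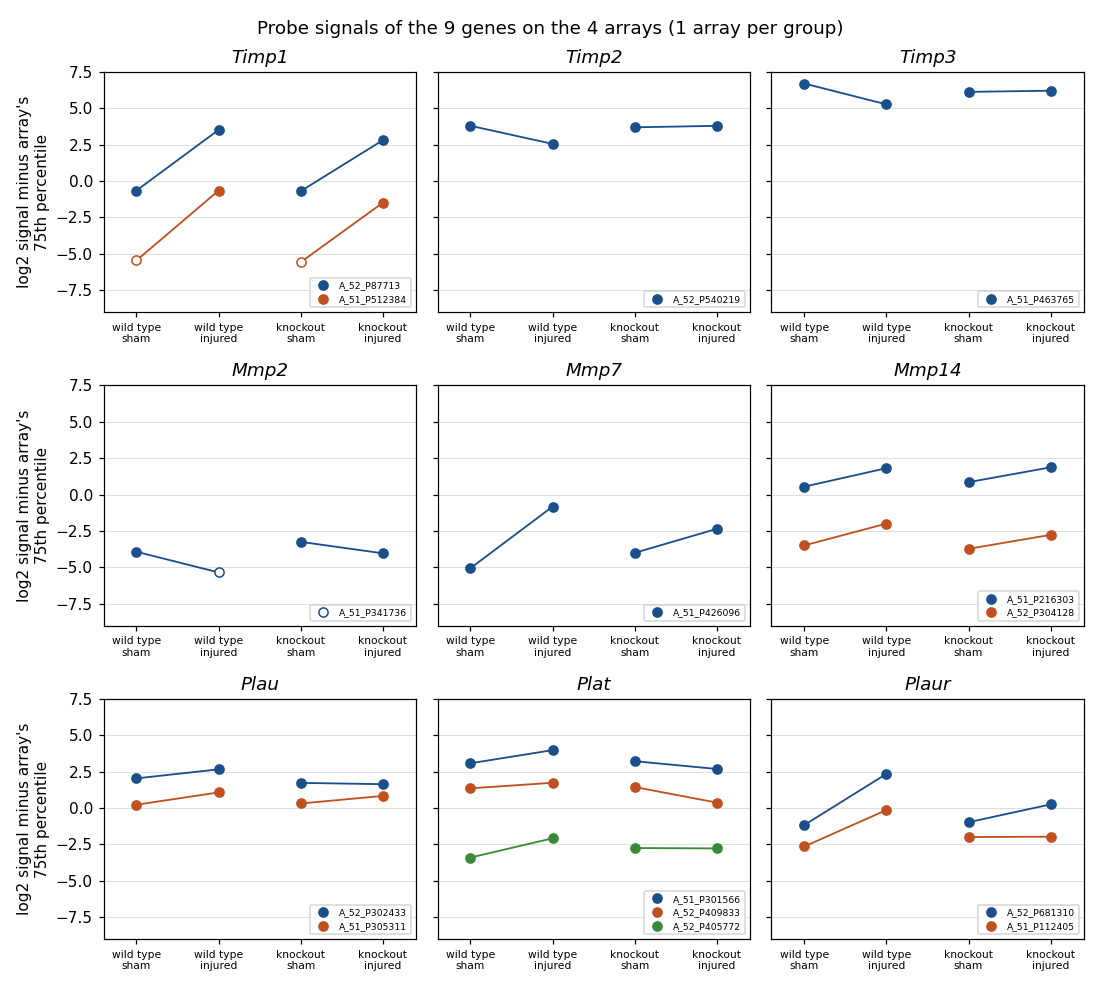
Log2 processed signal minus the array's 75th percentile (y axis) on the 4 arrays (x axis, 1 array per group) for every probe of the 9 genes, 1 panel per gene, with a colour per probe and lines joining sham to injured within a genotype. Open circles are probes not well above background. Timp1, Mmp7 and Plaur lie far higher in the injured than in the sham kidney of the wild type, Timp2 and Timp3 lie lower, and the knockout lines of Timp2 and Timp3 are nearly flat.

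Among the inhibitors, Timp1, a secreted protein that inhibits many metalloproteinases, read -0.65 (wild type) and -0.69 (knockout) after sham operation and 3.52 and 2.81 after injury with its brighter probe. Both injured arrays were far above both sham arrays, and the sham arrays lay within the technical SD of each other. The injury difference was 4.17 in the wild type (17.98-fold) and 3.50 in the knockout (11.3-fold). Between the injured kidneys the knockout was lower by 0.71, but the unscaled signals were 2021 in the wild type and 2465 in the knockout, so the direction appears only once the dimmer array is scaled. Median scaling gave -0.77, quantile normalization -0.71 and the authors' deposited table -0.67. All of these also level the arrays to each other, so they cannot check a direction that scaling brings. Under normexp, likewise scaled, the value was -1.09, where the median of all genes was 0.32. The second Timp1 probe, A_51_P512384, read -0.65 (wild type) and -1.49 (knockout) after injury and was not well above background on either sham array. Set against the higher of its dim reading and the faintest signal counted as above background on each sham array, it was at least 27.9-fold higher in the wild type and at least 16.9-fold higher in the knockout. Its difference between the injured kidneys was -0.84, and -0.18 under normexp. Unscaled, its injured signals were 112.4 in the wild type and 125.7 in the knockout, so this direction too appears only after scaling.

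Timp2, which inhibits metalloproteinases and also helps MMP14 to activate MMP2 at the cell surface, read 3.80 (wild type) and 3.69 (knockout) after sham operation and 2.55 and 3.79 after injury. One array, the wild type injured, stood low and the other 3 were within 0.10 of each other. Accordingly the injury difference was -1.24 in the wild type and 0.10 in the knockout. Timp3, an inhibitor that binds to the matrix, read 6.70 (wild type) and 6.13 (knockout) after sham operation and 5.27 and 6.21 after injury. Its wild type injured reading was again the lowest, with an injury difference of -1.43 in the wild type and 0.08 in the knockout. The knockout was lower than the wild type by 0.57 in sham kidney and higher by 0.94 after injury. Under normexp the wild type injury differences were -1.41 (Timp2) and -1.58 (Timp3). The knockout ones were -0.52 and -0.48, where the median of all genes was 0.39. Between the injured kidneys normexp gave 0.84 and 0.48, where that median was 0.32. The knockout values of these bright probes thus depended on the background correction. Timp4, the fourth family member and not among the 9 genes, read between -2.90 and -2.62 on the 4 arrays.

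Of the metalloproteinases, Mmp7 (matrilysin), a small secreted enzyme made by epithelia, read -5.06 (wild type) and -4.01 (knockout) after sham operation and -0.83 and -2.36 after injury. All 4 readings were above background but dim, with signals of 13.3, 28.1, 99.2 and 68.8 intensity units in that order. Both injured arrays were above both sham arrays, and the distance between injured and sham was wider in the wild type. The injury difference was 4.23 in the wild type (18.8-fold) and 1.65 in the knockout (3.14-fold), and the knockout was higher by 1.05 in sham kidney (2.08-fold) and lower by 1.53 after injury (2.88-fold). These sizes depend on how background is corrected. With normexp on the mean signals, a correction that fits background and signal together, the wild type injury difference was 2.08. That of the knockout was 1.82, and the difference between the injured kidneys was -0.08.

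Mmp14, the membrane-anchored metalloproteinase that activates MMP2, read 0.54 (wild type) and 0.85 (knockout) after sham operation and 1.81 and 1.87 after injury. The injured arrays lay together above the sham arrays, by 1.27 in the wild type and 1.02 in the knockout, and differed from each other by 0.06. Unscaled, the wild type signals were 648.9 after sham operation and 620.1 after injury, so the wild type injury difference too appears only once the dimmer array is scaled. The unscaled knockout injured signal was 1288, so the injured arrays are level only after scaling. Under normexp Mmp14 gave injury differences of 1.05 in the wild type and 0.53 in the knockout with this probe. The medians of all genes were 0.35 and 0.39 there. Its second probe, A_52_P304128, read -3.50, -3.73, -2.00 and -2.77 on the same arrays in that order, with injury differences of 1.50 and 0.96. That probe was lower in the knockout injured kidney by 0.77, where the brighter probe was level, and under normexp it gave 0.32, the same as the median of all genes there. Mmp2 (gelatinase A), which stromal cells make, read -3.93 (wild type) and -3.25 (knockout) after sham operation and -4.04 in the injured knockout, and its signal in the injured wild type was not well above background. It was at least 1.70-fold lower in the wild type injured kidney than in its sham and lower by 0.79 in the knockout. Under normexp both injury directions turned, to 0.49 in the wild type (its dim reading set at the lowest signal well above background) and 1.29 in the knockout, so no injury direction is given for Mmp2. The knockout was higher than the wild type by 0.68 in sham kidney and at least 1.58-fold higher after injury, and under normexp by 0.21 and 1.01.

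The plasminogen activators had injury differences under 2-fold with their brightest probes. Plau, which encodes urokinase, read 2.04 (wild type) and 1.73 (knockout) after sham operation and 2.66 and 1.64 after injury with its brighter probe. The wild type injured array was the highest and the knockout injured array the lowest, with injury differences of 0.62 and -0.09. Its second probe, A_51_P305311, read 0.23, 0.31, 1.07 and 0.83 in the same order, with injury differences of 0.84 and 0.52. Between the injured kidneys the probes gave -1.02 and -0.24, and their mean -0.63, so that a 2-fold difference was seen with 1 of the 2 probes. Unscaled signals of the brighter probe in these kidneys were 1114 and 1098, nearly level. In wild type sham kidney its unscaled signal was 1832, so the wild type injury difference of 0.62 also appears only once the dimmer array is scaled.

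Plat, which encodes tissue-type plasminogen activator, read 3.07 (wild type) and 3.22 (knockout) after sham operation and 3.98 and 2.68 after injury. The sham arrays lay close together, the wild type injured array above both and the knockout injured array below both. Injury differences were 0.90 and -0.54, and the knockout was lower by 1.29 between the injured kidneys. Unscaled sham and injured signals were 3754 and 2781 in the wild type and 4215 and 2266 in the knockout. The higher wild type reading after injury thus appears only once the dimmer array is scaled. The second probe, A_52_P409833, read 1.35, 1.44, 1.73 and 0.37, with injury differences of 0.38 and -1.07 and a difference of -1.36 between the injured kidneys. The dimmest probe, A_52_P405772, which was designed on a cDNA clone, read -3.40, -2.75, -2.08 and -2.77. Its difference between the injured kidneys was -0.69, and 0.40 under normexp, where the median of all genes was 0.32. For the brighter pair of Plat probes the knockout remained lower under normexp, by 1.69 and 1.10.

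Plaur, the urokinase receptor, read -1.17 (wild type) and -0.97 (knockout) after sham operation and 2.35 and 0.25 after injury with its brighter probe. The sham arrays were nearly level, and the wild type injured array stood well above the knockout injured array. The injury difference was 3.51 in the wild type (11.4-fold) and 1.22 in the knockout (2.34-fold). Between the injured kidneys the knockout was lower by 2.10 (4.27-fold), and the unscaled signals were 898 and 420. The second Plaur probe read -2.64, -1.99, -0.14 and -1.97, with injury differences of 2.51 (5.68-fold) in the wild type and 0.02 in the knockout. It was lower in the knockout injured kidney by 1.83, so both probes put the knockout lower, while in the knockout the second probe was level between sham and injured and the brighter one was higher after injury. Under normexp both were higher there, by 0.94 and 1.01. Under normexp the difference between the injured kidneys was -1.90 for the brighter probe and -0.62 for the second.

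**Figure D2:**
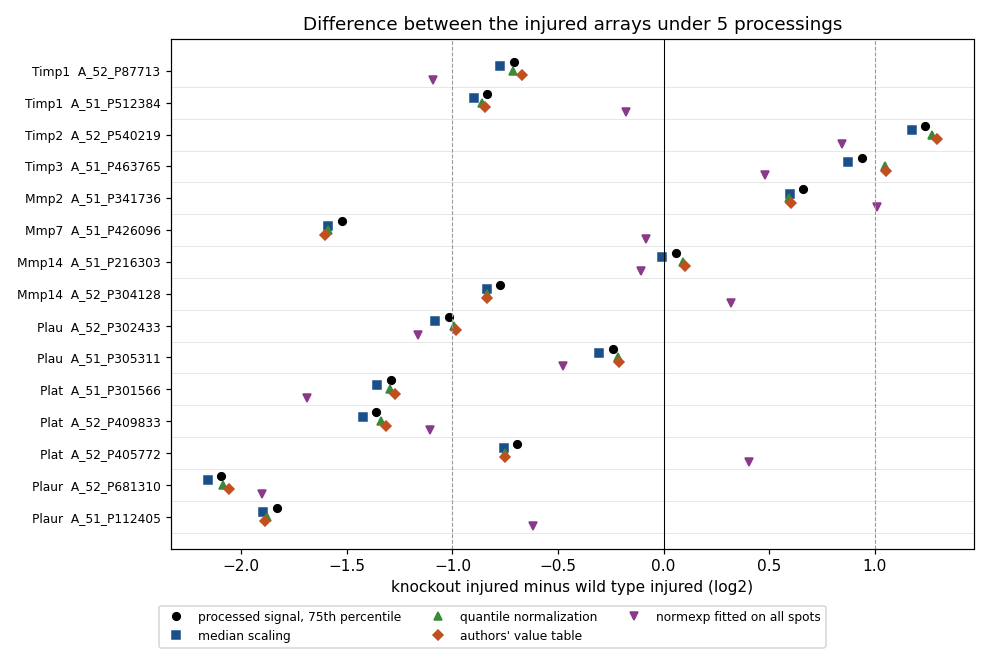
Difference between the knockout injured and the wild type injured array (x axis, log2) for each of the 15 probes (y axis) under 5 ways of processing the arrays; dashed lines mark 2-fold. The settings other than normexp lie close together for every probe, and normexp departs most for dim probes, such as Mmp7 at -0.08 and Plat A_52_P405772 at 0.40.

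Counted with 1 probe per gene, the brightest, 4 of the 9 genes were at least 2-fold higher and 2 at least 2-fold lower in the injured wild type kidney. Among all 20095 genes above background on either array, 15.2% were higher and 11.5% lower by as much. In the knockout, 4 of the 9 were at least 2-fold higher and 0 lower, against 4.15% and 3.07% of 20743 genes. With the mean over each gene's probes the knockout count was 2, since Plaur came to 0.62 and Mmp14 to 0.99. Under normexp the brightest Mmp14 probe gave 0.53 in the knockout, where the median of all genes was 0.39. The median over the 9 genes was 0.90 in the wild type and 0.10 in the knockout, beside 0.09 and 0.04 over all genes. In the sham pair 1 gene, Mmp7, was higher in the knockout and 0 were lower, against 4.76% and 3.07% of 20661 genes. That Mmp7 value was under 2-fold with median scaling (0.90), quantile normalization (0.78), the authors' deposited table (0.81) and normexp (0.18). In the injured pair 1 gene was higher and 4 lower in the knockout, against 8.28% and 7.84% of 20288 genes, with a median of -0.71 beside 0.02. The count of lower genes includes Plau, where the second probe gave less than 2-fold, and Mmp7, which gave -0.08 under normexp. Timp1, not in that count, gave -1.09 under normexp, so the genes that make up the count depend on the background correction.

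The injury response itself, the injured-minus-sham difference of the knockout minus that of the wild type, could be formed for the 8 genes above background on all 4 arrays. It was -2.58 for Mmp7, -2.29 for Plaur, -1.44 for Plat, -0.71 for Plau, -0.67 for Timp1, -0.25 for Mmp14, 1.34 for Timp2 and 1.51 for Timp3. Timp2 and Timp3 were the positive values and the other 6 genes, the inhibitor Timp1 among them, the negative ones. By 2-fold, 3 genes were lower and 2 higher, against 9.85% and 8.88% of 17663 genes. The Mmp7 value depended on the background correction. Under normexp Mmp7 gave -0.26 and Timp1 -1.07, where the median of all genes was 0.16.

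**Figure D3:**
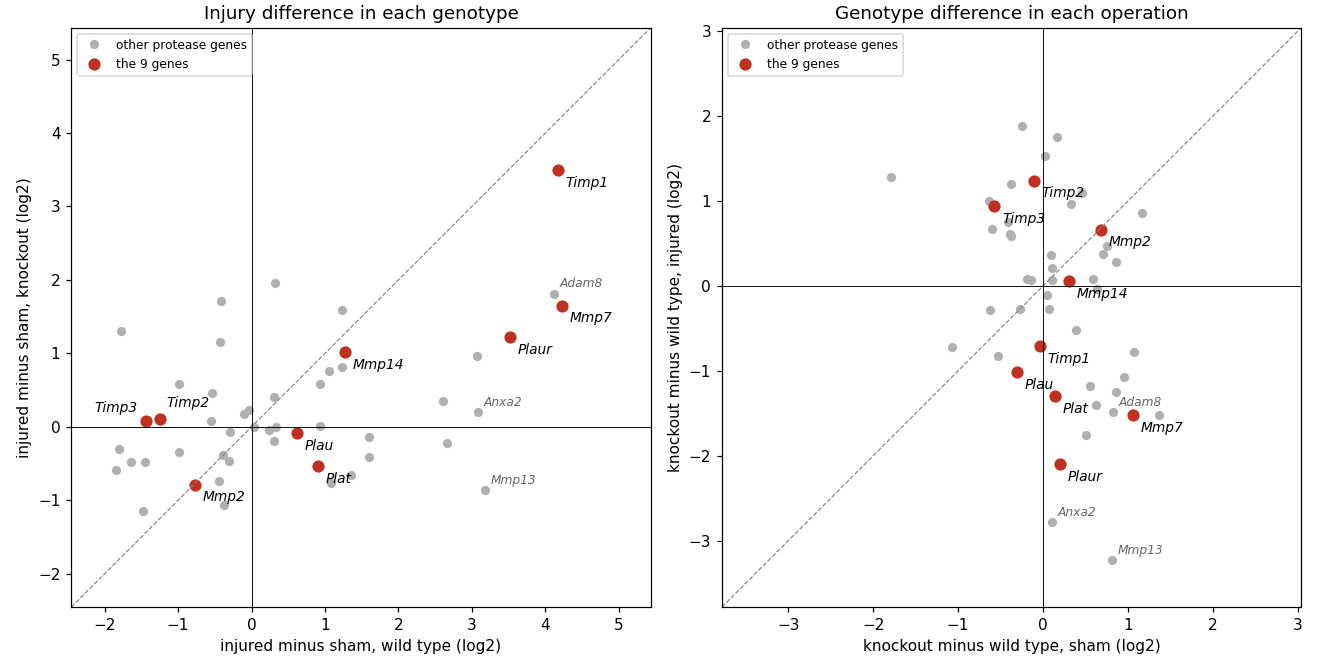
Left, the injured minus sham difference (log2) in the wild type (x axis) against that in the knockout (y axis); right, the knockout minus wild type difference in sham (x axis) against injured kidneys (y axis). Red points are the 9 genes, grey points the other protease genes above background, and the dashed diagonal marks equal values. Plaur at 3.51 and 1.22 and Mmp7 at 4.23 and 1.65 lie below the diagonal on the left, and Plaur lies lowest of the 9 genes on the right at -2.10.

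A limma fit of injury over all 4 arrays, with genotype as a term, left 1 residual degree of freedom, and a difference in response between genotypes counts as error in it. It gave Timp1 a mean injury difference of 3.83 (SE 0.32), Mmp7 2.94 (SE 0.73), Plaur 2.37 (SE 0.66), Mmp14 1.14 (SE 0.27) and Mmp2 -1.10 (SE 0.31). All 5 had an unadjusted limma p under 0.05, as did 2147 (10.7%) of the 20001 genes tested, and an adjusted p of 0.446, the smallest in the fit. The fit called 0% of genes at an adjusted p under 0.05. Without the knockout injured array, and with the genotype term dropped so that a residual degree of freedom remained, limma called 646 genes, among them Timp1, Plaur and Mmp7, with adjusted limma p-values of 0.0298, 0.0307 and 0.0433. That fit sets the single injured wild type array against both sham arrays and assumes that the lone array varies like the sham pair. Leaving out any other array in the same way called none of the 9 genes, with smallest adjusted limma p-values of 0.125, 0.597 and 0.977 among them. Mmp2 entered these fits with its own dim signal on the injured wild type array, and its injury differences turned under normexp. The genotype fit also called 0% of genes, with a smallest adjusted p of 0.722 and 1177 genes (5.88%) under 0.05 before adjustment. Mmp2 alone among the 9 was under 0.05 before adjustment, with a difference of 0.997 (SE 0.31). Without the wild type sham array and the treatment term, the genotype fit sets the single injured wild type array against both knockout arrays. Injury is then mixed into its genotype difference, so its calls are not read. For Timp1 it gave -2.46, against -0.04 between the sham arrays and -0.71 between the injured ones. With normexp, where limma gave every gene the same variance, the injury and genotype fits over all 4 arrays called 6444 and 112 genes.

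The neighbouring genes of the system, taken as 57 genes in 4 lists of which 55 were on the array, give the setting. Of 43 above background in the wild type pair, 14 were at least 2-fold higher and 6 lower after injury, and of 42 in the knockout pair, 6 were higher and 2 lower. The shares of all genes, given above, were 15.2% and 11.5% in the wild type and 4.15% and 3.07% in the knockout, and the list counts are read against these. Anxa2 and S100a10, whose products form a plasminogen receptor complex, were higher after injury in the wild type by 3.08 and 2.61 and lower in the injured knockout than in the injured wild type by 2.78 and 1.76. The transcript of plasminogen itself, which the liver makes, was not well above background on any array.

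In the plasminogen list, 6 of 13 genes were at least 2-fold higher and 1 (Serpinf2, the plasmin inhibitor alpha 2-antiplasmin, at -1.77) lower in the injured wild type, where 15.2% and 11.5% of all genes were, and 3 and 1 in the injured knockout. Between the injured kidneys 3 of 13 were higher and 5 lower in the knockout, against 8.28% and 7.84% of all genes, the higher ones being Hgf (at least 1.88), Mrc2 (1.75) and Serpinf2 (1.28). Hgf encodes hepatocyte growth factor, and Mrc2 a collagen receptor that binds the urokinase receptor complex. Serpinf2 read 3.96 (wild type) and 2.17 (knockout) after sham operation and 2.19 and 3.47 after injury. Its knockout sham reading was thus as low as the wild type injured one. The other matrix metalloproteinases had 4 of 11 higher in the injured wild type, led by the collagenase Mmp13 (3.17), and 1 of 10 in the injured knockout, Mmp3 (1.59). Mmp13 was lower by 3.23 in the injured knockout than in the injured wild type. Mmp9, the other gelatinase, was not well above background on any array.

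Of the other inhibitors and cofactors, 1 of 6 was higher (A2m, 1.06) and 3 lower in the injured wild type, including Reck, a membrane-anchored inhibitor, at -1.46, and Bsg, an inducer of metalloproteinases, at -1.48. In the injured knockout 0 were higher and 1 lower (Bsg, -1.15). With 6 genes, 1 higher gene is near the 15.2% of all genes. The ADAM and ADAMTS proteases had 3 of 13 higher, led by Adam8 (4.12) and Adamts1 (3.07), and 2 lower in the injured wild type, and 2 higher and 0 lower in the injured knockout; the wild type counts are near the 15.2% and 11.5% of all genes. Adam8 and Adamts1 were lower in the injured knockout than in the injured wild type by 1.48 and 1.25.

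Markers of other cell types differed between the arrays too, and their part in the results was not tested. In bulk RNA, fewer cells of a type and less RNA per cell cannot be told apart. All 5 injured tubule markers were above background on every array. Their summed signal relative to the percentile was 2.79 (wild type) and 1.76 (knockout) after sham operation and 140 and 9.29 after injury, with Krt20 the brightest in the wild type injured sum. Singly, Krt20, Sox9, Lcn2 and Havcr1 were lower in the injured knockout than in the injured wild type, and Vcam1 was higher (0.79). Havcr1 read 0.38 (wild type) and -4.91 (knockout) after sham operation, with injury differences of 3.08 and 5.53. The 6 proximal tubule markers summed to 590.5, 481.1, 195.1 and 505.9 in that order, lowest on the wild type injured array. Slc22a6 alone among them was not lower there than in wild type sham (6.62 and 6.43). The sums of the 5 endothelial markers (18.8, 23.3, 4.57 and 16.9) and of the 4 markers of thick limb, distal tubule and collecting duct (66.3, 97.5, 14.4 and 29.5) were lowest on the wild type injured array too. Singly, Aqp2 was lowest in the injured knockout (1.55, against 1.82 in the injured wild type). The 5 neutrophil markers on the array summed to 4.76, 6.84, 12.2 and 3.35, with Csf3r and Cxcr2 each not above background on 3 of the 4 arrays. The 5 macrophage markers summed to 9.74, 13.4, 7.49 and 11.7, a sum in which Lyz2 was the brightest. Singly, C1qa (-2.93), Adgre1 (-2.82) and Csf1r (-1.16) were lower in the injured wild type than in its sham and Cd68 was higher (2.81). The 6 fibroblast and mural markers summed to 29.9, 25.1, 30.4 and 70.8, highest in the injured knockout. Acta2 alone among them was lower there than in the injured wild type (-0.53). The 4 fat markers summed to 26.5 in wild type sham and to at most 0.231 on the other arrays, where Adipoq and Plin1 were not above background. The 3 erythroid markers summed to 12.2, 104.6, 2.54 and 0.948, highest on the knockout sham array, and the 5 urothelial markers to 3.07, 1.02, 0.233 and 0.590.

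The genes whose readings ran most like each member over the 4 arrays were found by Euclidean distance between centred log2 values among 12934 genes above background on all 4, as a description over 4 arrays that share slides and scaling. Nearest to Timp1 were Cenph (0.29), Chaf1b (0.55) and Dtl (0.60), and nearest to Mmp7 were Adam8 (0.17), Spp1 (0.46) and Ndc80 (0.48). Nearest to Plaur were Clu (0.22), Mthfd1l (0.23) and Ppm1j (0.28), and nearest to Plat were Ets2 (0.06), Serpinb9 (0.09) and Adm (0.09). Timp2 had Vwa2, Csrp2 and Nme2 within 0.08 and Timp3 had Olfr1048, Ivd and Nme3 within 0.10. Mmp14 had Gucy1b2, Armc12 and Ddx11 within 0.10 and Plau had Slc39a6, Atp6v0a1 and Ints5 within 0.06. With wild type sham as the reference for both injured arrays, which leaves out the knockout sham array, the injured knockout was higher for Timp1 by 3.46, Mmp7 by 2.70, Plaur by 1.42 and Mmp14 by 1.33, and 0 members were 2-fold lower, against 10.2% and 7.79% of all genes.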

How the data were processed

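The scanner files hold intensity values per spot, which the authors made with Agilent Feature Extraction (9.1 per the submitters' processing notes, but 10.7.3.1 per the file headers) and which were background-subtracted and detrended within an array per the file headers. A deposited table by the authors gives log2 values of the same arrays, with the normalization not given in the sources used here and column medians of 5.91 to 5.93; it served as an alternative. Probe positions are mm9.

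Of 43379 noncontrol spots per array, the ones carrying 1 of 2 outlier flags were dropped and the rest averaged per probe (41142 probes); 67.25% to 74.64% of probes were well above background per array. Values are log2 processed signal minus the array's 75th percentile. Genes follow the names in the files and their brightest probe. A dim value is replaced by the array's lowest signal well above background where that is higher, giving "at least". Differences were counted at 2-fold, with no test. The fits used limma 3.58.1 in R 4.3.3 on genes above background on at least 2 arrays, with Benjamini-Hochberg adjustment. They were also run on simulated data with an injury effect alike in both genotypes, which cannot check them where the genotypes respond differently. Named genes are the 9 members, the 3 largest 2-fold differences each way in the lists, of which a selection is given, and the 3 nearest patterns. Timp4, Plg, Mmp9, Nlrc5 and the genes named outside that rule were named after their values were seen. The members and lists were chosen with earlier results of these data known, and 1 gene of the lists is not reported here. Alternatives were other backgrounds, scalings, probe rules and thresholds, and leaving out arrays. Array number limits the precision.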

Additional observations from a re-analysis of the deposited data

Results flagged for a closer look

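The following probes had genotype differences of opposite direction in sham and injured kidneys; with 1 array per group every such difference between groups is a difference between single arrays, and it was not tested. The Timp3 probe gave -0.57 in sham and 0.94 after injury, and the Mmp7 probe 1.05 and -1.53. Plat A_52_P405772 gave 0.65 and -0.69. Its unscaled signals, however, were higher in the knockout in both pairs. They were 42.2 (wild type) and 67.4 (knockout) in sham and 41.7 and 51.5 after injury. Plaur A_52_P681310 gave 0.19, about the technical SD, and -2.10, and Plaur A_51_P112405 gave 0.65 and -1.83.

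The brighter pair of Plat probes had injury differences of opposite direction in the genotypes, again not tested. Plat A_51_P301566 gave 0.90 in the wild type and -0.54 in the knockout, and Plat A_52_P409833 gave 0.38 and -1.07. Unscaled, both probes were lower after injury in both genotypes, so the opposite direction appears only once the dimmer array is scaled. Unscaled sham and injured signals of A_51_P301566 were 3754 and 2781 in the wild type and 4215 and 2266 in the knockout.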

How the results depend on the processing

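No paired analysis was possible because each group held 1 array. Keeping the spots with outlier flags, or scaling by the median, left all 75 differences of the members within the technical SD of their reported values. Median scaling shifts every probe of a comparison by the same amount, so its 75 values are not separate checks. Quantile normalization moved 9 of 75 and the values of the authors' table differed for 8, and 0 differences of at least 2-fold changed sign. Normexp moved 54, and moved 52 when it was fitted without spots with outlier flags, a setting added after the data were seen; 13 of 75 changed sign in each, 1 of them a difference of at least 2-fold, the Plat A_52_P405772 response difference, from -1.35 to 0.029 and to 0.0016. Normexp also shifted the median of all genes, to 0.35 (wild type injury), 0.39 (knockout injury), 0.32 (injured pair) and 0.16 (response difference), so its values are read relative to these. The causes were not tested. The 1 member 2-fold higher in the knockout sham became 0 under both normexp fits, median scaling, quantile normalization, the authors' table and a 4-fold threshold. In the injured pair the higher count was 2 with quantile normalization and with the authors' table, and 0 with normexp fitted without those spots and at 4-fold. The higher count in the knockout injury was 2 with the mean over probes and 1 at 4-fold; for the response difference it was 1 under both normexp fits and 0 at 4-fold. At 4-fold, 0 were lower in the wild type injury and 1 was lower in the injured knockout. The shares of all genes given above hold for the reported values at 2-fold only. The counts under these other settings are therefore not read against any share. The injury fit called 6444 and 6363 genes and the genotype fit 112 and 118 under the 2 normexp fits; leaving out 1 array in turn with the other factor dropped from the model gave 0 to 646 and 0 to 350. Dim probes such as Mmp7 and Mmp2 limit what can be read, and the bright probes of Timp2 and Timp3 also moved under normexp.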
